A study of Homo sapiens with 3 samples.

Results

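The insulin and IGF genes followed here are 10 gene names of the array, INSR, IGF2R, IRS1, IRS2, IGFBP2, IGFBP3, IGFBP4, IGFBP5, IGFBP6 and IGFBP7, out of 30982 gene names in all. They were chosen by name: every non-control probe whose gene name equals 1 of these symbols was taken, which gave 16 probes. Measurements were made in the 1205Lu line, a human melanoma line from a lung metastasis that formed in a mouse carrying WM793 melanoma cells. Total RNA of 3 populations was labelled with Cy3 and hybridised to 1 Agilent array each, all on 1 slide. The original monolayer (OM) had been kept for 14 days in RPMI-1640 with 10% FCS. The melanoma bodies (MB), which are adherent 3-dimensional cell aggregates, had been kept for 14 days in hESC medium, that is DMEM F-12 with 20% Knock Out (KO) serum replacement. The new monolayer (NM) came from melanoma bodies kept for 14 days in hESC medium, followed by 10 days back in RPMI-1640 with 10% FCS, with the remaining bodies removed before RNA was prepared. All 3 populations are the same cell line, so they stand for 1 tumour, and the MB population differs from OM in both medium and growth form, which cannot be told apart. KO serum replacement is a defined supplement that contains insulin.

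Insulin binds the insulin receptor, and the insulin-like growth factors IGF1 and IGF2 bind the related IGF1 receptor. Both are tyrosine kinases that phosphorylate the adaptor proteins IRS1 and IRS2, which in turn recruit PI3-kinase and switch on AKT and mTOR. AKT keeps the FOXO transcription factors out of the nucleus, and transcription of IRS2 is among the targets of FOXO. The IGF-binding proteins are secreted. They hold IGFs away from the receptor or carry them, and proteases such as PAPPA set the IGFs free again by cutting binding proteins.

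Each population was measured on 1 array from 1 culture, so no test across samples exists, and no p-value is given. Signals are background-subtracted intensities in arbitrary units (a.u.), scaled on each array by the average of 3 housekeeping genes (GAPDH, ACTB, HSP90AA1) relative to OM (the divisors were 1 for OM, 0.978 for MB and 0.877 for NM). A gene was called at a 2-fold difference when the brighter array was above 100 a.u. before scaling, and the 5-fold limit of the study is given beside it. The spread over the 264 probes printed in 10 spots gives the technical error between single spots of the same arrays, called the technical SD below. For MB over OM, the SD of the log2 ratio was 0.035 where the dimmer array was above 1000 a.u., 0.066 between 100 and 1000 a.u., and 0.20 between 30 and 100 a.u. This spread leaves out the variation between cultures. The 3 arrays had 26516 to 29126 of 41000 probes well above background. Of 9 melanocytic and neural crest markers, 6 or 7 were well above background on each array, SOX10, S100B, MIA and MITF among them, while TYR and TYRP1 were at background on all 3. Of 6 markers of fibroblasts, epithelium, leukocytes and endothelium, KRT19 was above background on all 3 arrays, and DCN and PECAM1 on MB alone. The summed signal of these 6 markers was 75.2 a.u. on OM, 184 a.u. on MB and 105 a.u. on NM, with PECAM1 the largest part of it on MB, at 89.7 a.u., and its part in the results below was not tested.

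The probes are 60-mers read in the sense direction of the transcript. Shown here are 5 probes of the 4 genes that passed 2-fold, so that a reader can see what was hybridised: 4 that measured their gene and 1, of IGFBP5, that stayed at background. The other probes are given by position only, and no probe was assigned to an exon or UTR by an annotation. Positions are on the hg17 build, as the files give them. The IRS2 probes shown lie on the minus strand of chr13, upstream of the brightest IRS2 probe, at chr13:109232846-109232905 and chr13:109232595-109232654. The IGFBP3 probe, at chr7:45729454-45730058 on the minus strand, covers 605 bases of genome with its 60 bases and so spans an intron. The IGFBP5 probe, at chr2:217367090-217368378 on the minus strand, spans an intron as well and covers 1289 bases of genome. The IGFBP6 probe lies at chr12:51781120-51781179 on the plus strand.
IRS2, first upstream probe: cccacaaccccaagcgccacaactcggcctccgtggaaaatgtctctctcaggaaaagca
IRS2, second upstream probe: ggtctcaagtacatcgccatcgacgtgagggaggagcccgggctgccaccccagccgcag
IGFBP3, intron-spanning probe: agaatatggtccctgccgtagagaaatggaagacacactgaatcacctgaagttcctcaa
IGFBP5, intron-spanning probe: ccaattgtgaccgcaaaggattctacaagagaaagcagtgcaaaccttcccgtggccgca
IGFBP6: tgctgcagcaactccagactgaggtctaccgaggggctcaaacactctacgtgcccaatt

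Of the 10 genes, 9 were measured above background on all 3 arrays, and 4 differed 2-fold or more in at least 1 comparison: IRS2, IGFBP3, IGFBP5 and IGFBP6. In MB over OM, 9 genes had a signal above 100 a.u., of which IGFBP5 was higher and IRS2 and IGFBP6 were lower, beside 6.76% higher and 4.23% lower of all 17815 gene names tested. In MB over NM, IGFBP5 was higher and IRS2 lower among the 9 tested, beside 13.7% higher and 10.4% lower of all 17772. In NM over OM, IGFBP3 was higher and none was lower among the 8 tested, beside 4.36% higher and 5.98% lower of all 17554. No member reached 5-fold in any comparison, which 1.73%, 4.55% and 1.76% of all gene names did in MB over OM, MB over NM and NM over OM. The median log2 ratio of the members was 0.00 in MB over OM and 0.02 in MB over NM, beside 0.09 and 0.04 over all gene names tested. In NM over OM it was -0.11, beside 0.08 over all. MB enters both of the first comparisons and OM enters 2 of the 3, so the calls share arrays.

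**Figure D1:**
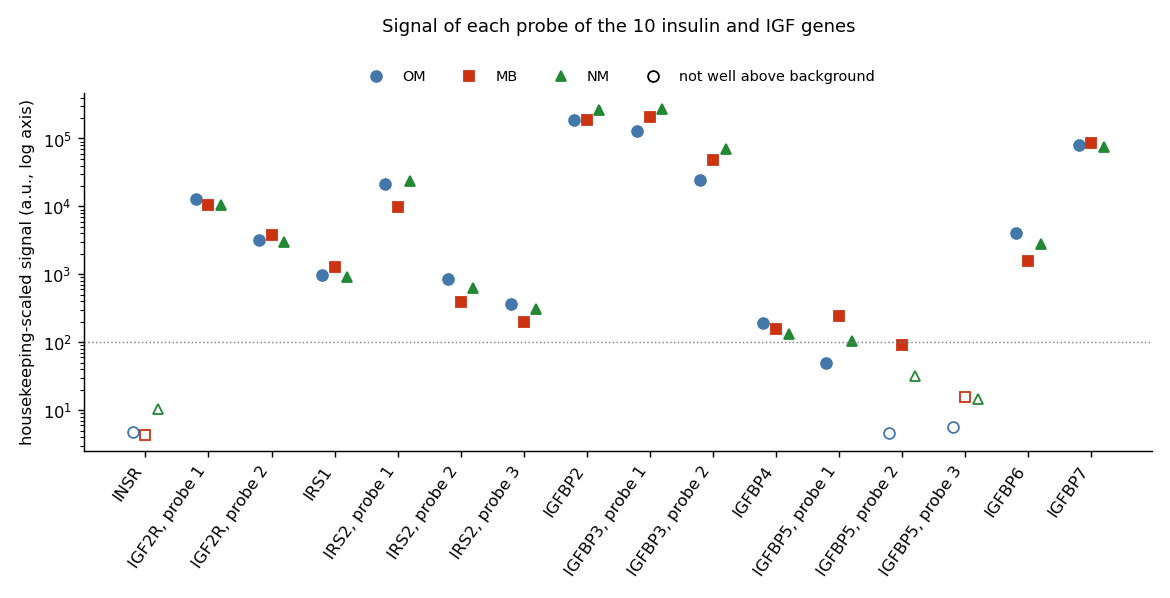
Housekeeping-scaled signal (a.u., log axis) of each of the 16 probes on the OM, MB and NM arrays, 1 point per array, with open symbols where the probe was not well above background and a dotted line at 100 a.u. The 3 IRS2 probes have their lowest point on MB, both measured IGFBP5 probes have their highest point on MB, and INSR and the third IGFBP5 probe are open on all 3 arrays.

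Among the receptors, the single INSR probe, for the insulin receptor, was at background on all 3 arrays, at 4.76 a.u. on OM, 4.37 a.u. on MB and 10.4 a.u. on NM. It lies at chr19:7067899-7067958 on the minus strand, and no ratio can be given for it. IGF2R, which takes up IGF2 for degradation in lysosomes and also carries mannose 6-phosphate enzymes, was read by 2 probes that lie 858 bases apart, at chr6:160497525-160497584 and chr6:160496607-160496666. The brighter probe gave 12666 a.u. on OM, 10461 a.u. on MB and 10321 a.u. on NM. The other gave 3223 a.u. on OM, 3784 a.u. on MB and 2974 a.u. on NM. MB was thus 0.826-fold of OM by the first probe and 1.17-fold by the second, each further from 1 than the technical SD and in opposite directions. IGF2R passed 2-fold in no comparison with either probe.

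Of the substrates, IRS2 passed 2-fold and IRS1 did not. IRS1 was 989 a.u. on OM, 1288 a.u. on MB and 903 a.u. on NM, so that MB was highest, at 1.30-fold of OM and 1.43-fold of NM, and neither passed 2-fold. IRS2 by its brightest probe (chr13:109204646-109204705, minus strand) was 21079 a.u. on OM, 9921 a.u. on MB and 23582 a.u. on NM. The MB array was the low one, and OM and NM lay on the same side of it.
By that probe IRS2 was 2.12-fold lower in MB than in OM (log2 ratio -1.09, technical SD 0.035) and 2.38-fold lower in MB than in NM (log2 ratio -1.25, technical SD 0.031). The second upstream probe, 27.9 kb away on the genome, gave 844 a.u. on OM, 396 a.u. on MB and 630 a.u. on NM. The first upstream probe gave 372 a.u. on OM, 199 a.u. on MB and 308 a.u. on NM. All 3 probes had their lowest signal on MB, with MB at 0.469 to 0.535-fold of OM. Against NM they spread from 0.421 to 0.646-fold, and the upstream probes did not pass 2-fold there. They also differed in NM over OM, where the brightest probe gave 1.12-fold and the upstream probes 0.746 and 0.829-fold.

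Of the 6 binding proteins, IGFBP2, IGFBP4 and IGFBP7 passed 2-fold in no comparison. IGFBP2, a binding protein with a preference for IGF2, was 185045 a.u. on OM, 185038 a.u. on MB and 264605 a.u. on NM. OM and MB were level at 1.00-fold, and NM was 1.43-fold of OM. IGFBP7, a relative of the family with low affinity for IGFs, was 80545 a.u. on OM, 87225 a.u. on MB and 75824 a.u. on NM, within 1.15-fold in every comparison. IGFBP4 was dim, at 191 a.u. on OM, 155 a.u. on MB and 133 a.u. on NM, and MB was 0.812-fold of OM.

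IGFBP3, the main carrier of IGFs in blood, was lowest on OM and highest on NM by both of its probes. The probe printed in 10 spots lies at chr7:45725848-45725907 and gave, unscaled, 126992 ± 3121 a.u. on OM (SD over 10 spots), 203380 ± 9040 a.u. on MB and 234083 ± 13975 a.u. on NM. The highest OM spot, 131898 a.u., lay below the lowest MB spot, 192139 a.u. Unscaled, the MB spots reached 220650 a.u. and overlapped the NM spots, which began at 215682 a.u. Division by 0.978 for MB and 0.877 for NM raised NM more, and the scaled MB and NM spots no longer overlapped. After scaling, IGFBP3 was 1.64-fold higher in MB than in OM and 2.10-fold higher in NM than in OM, and only the second passed 2-fold. The intron-spanning probe, at 24618 a.u. on OM, 48800 a.u. on MB and 69739 a.u. on NM, gave 1.98-fold and 2.83-fold. The NM over OM call of the 10-spot probe was near the limit: it was 1.99-fold with scaling to the 75th percentile, 1.91-fold with scaling to control RNAs added to each sample (spike-ins), 1.84-fold with no scaling and 1.67-fold after quantile normalization.

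**Figure D2:**
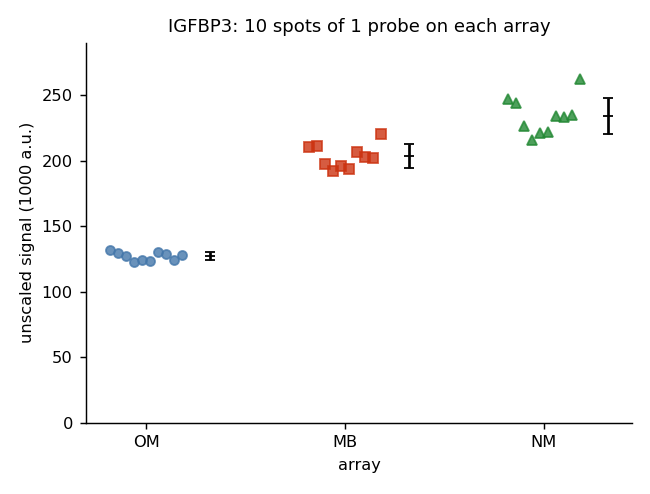
Unscaled signal (1000 a.u.) of the 10 spots of the IGFBP3 probe on each array, with the mean and SD over spots at the right of each group; the spots are technical repeats of 1 RNA sample. The 10 OM spots lie below all MB and NM spots. The unscaled MB and NM spots overlap between 215682 and 220650 a.u., an overlap that is gone after housekeeping scaling.

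IGFBP5, a binding protein that also sticks to extracellular matrix, had the largest ratio of the 10 genes. Its brightest probe (chr2:217362673-217362732) gave 49.8 a.u. on OM, 243 a.u. on MB and 104 a.u. on NM. MB was the high array, 4.88-fold above OM (log2 ratio 2.29, technical SD 0.20) and 2.35-fold above NM (log2 ratio 1.23, technical SD 0.16). NM was 2.08-fold of OM, but both arrays were below 100 a.u. before scaling (49.8 and 91.0 a.u.), so that this ratio was not tested. A second probe, at chr2:217366433-217366492, was well above background on MB alone, at 90.4 a.u., which makes MB at least 4.33-fold higher than OM and at least 2.72-fold higher than NM. The intron-spanning probe shown above was at background on all 3 arrays. Background correction moved these dim values: MB over OM was 2.53-fold and MB over NM 1.68-fold with normexp background correction, which models signal and background together and adds an offset of 50 a.u. IGFBP5 and IGFBP2 are neighbours that are transcribed towards each other, with 8021 bases between their brightest probes in hg17, and MB was 4.88-fold of OM for the one and 1.00-fold for the other.

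IGFBP6, which prefers IGF2 over IGF1 more strongly than the other family members, was lower in MB than in OM. The probe shown above gave 4018 a.u. on OM, 1599 a.u. on MB and 2764 a.u. on NM. MB was the lowest and NM lay between MB and OM. IGFBP6 was 2.51-fold lower in MB than in OM (log2 ratio -1.33, technical SD 0.035), the lowest 2.39% of all gene names tested. It was 1.73-fold lower in MB than in NM, which did not pass 2-fold.

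**Figure D3:**
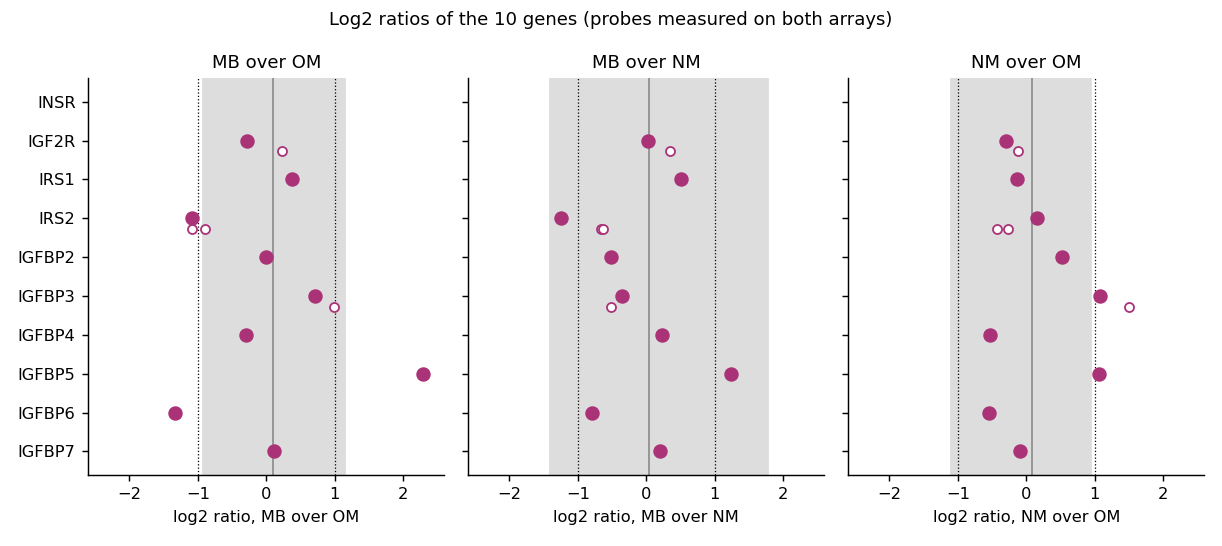
Log2 ratio of each gene in the 3 comparisons, with a filled point for the brightest probe and open points for the other probes measured on both arrays; the grey band spans the 5th to the 95th percentile of all gene names tested, the grey line is their median and dotted lines mark 2-fold. In MB over OM, IGFBP5 lies right of the band at 2.29, and IRS2 at -1.09 and IGFBP6 at -1.33 lie left of it.

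Over the 3 populations, the NM level of IGFBP6, 0.688-fold of OM, and that of IGFBP5, 2.08-fold of OM, lay between MB and OM. For IRS2 the position of NM depended on the probe and the scaling: the upstream probes placed it between MB and OM, and the brightest probe gave 1.12-fold of OM, or 0.981-fold with no scaling. IGFBP3 and IGFBP2 had their highest signal on NM. Within the binding proteins, 3 of 6 had a ratio above 1 in MB over OM, 3 of 6 in MB over NM, and 2 of the 5 tested in NM over OM. Of all gene names tested, 57.7%, 52.0% and 56.9% had a ratio above 1 in these comparisons.

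Because IRS2 and IGFBP6 were both lower in MB, the DNA upstream of their starts is shown. The sequences are from RefSeq (GRCh38.p14), which has an entry from 250 bases before to 50 bases after the start for 9 of the 10 genes. The letters searched, on both strands, were TGTTTAC, the forkhead motif that FOXO proteins bind, and TGTTTTG, the insulin response motif known from the IGFBP1 promoter, which do not overlap each other here. TGTTTAC was in 3.42% and TGTTTTG in 4.92% of 35116 promoters of that length. Among the 9 members, TGTTTAC was found in the IGFBP6 window alone and TGTTTTG in the IRS2 window alone. Capitals mark the match: GTAAACA, the reverse complement of TGTTTAC, begins 186 bases before the IGFBP6 start (chr12:53097417-53097666, plus strand), and TGTTTTG begins 40 bases before the IRS2 start (chr13:109786584-109786833, minus strand). The match is a description of the letters, and binding was not measured.
IGFBP6: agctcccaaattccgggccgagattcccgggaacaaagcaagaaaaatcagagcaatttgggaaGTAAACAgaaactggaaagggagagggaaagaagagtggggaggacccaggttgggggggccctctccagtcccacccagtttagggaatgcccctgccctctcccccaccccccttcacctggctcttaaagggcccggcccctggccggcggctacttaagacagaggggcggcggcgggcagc
IRS2: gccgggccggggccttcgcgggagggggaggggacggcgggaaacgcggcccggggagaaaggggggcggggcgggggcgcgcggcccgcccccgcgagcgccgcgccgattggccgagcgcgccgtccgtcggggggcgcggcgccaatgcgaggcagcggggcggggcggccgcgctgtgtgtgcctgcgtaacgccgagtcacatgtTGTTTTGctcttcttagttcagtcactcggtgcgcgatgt

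The rest of the pathway was followed with a list of 69 genes, of which 67 were on the array by name. In MB over OM, 54 had a signal above 100 a.u., of which 7 were higher and 4 lower at 2-fold and 1 passed 5-fold. In MB over NM, 6 of 53 were higher, 5 lower and 4 passed 5-fold. These shares, 11.3% higher and 9.43% lower, were below the 13.7% and 10.4% of all gene names. In NM over OM, 4 of 52 were higher, none lower and none passed 5-fold. That is 7.69% higher, beside 4.36% higher and 5.98% lower of all gene names. The shares of all gene names past 5-fold were 1.73%, 4.55% and 1.76% in MB over OM, MB over NM and NM over OM. In MB over OM, 13.0% of the tested list genes were higher and 7.41% lower, beside 6.76% and 4.23% of all gene names. The list was chosen with earlier results of these data known. The shares of the list and of its groups below are therefore descriptions and not independent support. The list's median log2 ratio was 0.33 in MB over OM, 0.34 in MB over NM and 0.00 in NM over OM.

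Of the ligands, IGF2 was higher in both MB and NM than in OM. By its brighter probe (chr11:2106970-2107029) it was 18293 a.u. on OM, 79588 a.u. on MB and 56352 a.u. on NM before scaling, which is 4.45-fold for MB over OM, 3.51-fold for NM over OM and 1.27-fold for MB over NM. OM was the low array. The second probe spans an intron and was dim, at 36.8 a.u. on OM, 112 a.u. on MB and 90.7 a.u. on NM before scaling. It gave 3.12-fold for MB and 2.81-fold for NM over OM, the latter with both arrays below 100 a.u. and so below the limit for a call. All 4 probes of IGF1 were at background on all 3 arrays. INS was dim, at 111 a.u. on OM, 69.7 a.u. on MB and 81.6 a.u. on NM before scaling, and did not pass 2-fold. The IGF1 receptor, IGF1R, gave 151 a.u. on OM, 173 a.u. on MB and 84.5 a.u. on NM by its probe printed in 10 spots, so that MB was 1.17-fold of OM and 1.84-fold of NM after scaling. The binding partners IGFBP1, a target of insulin in liver, and IGFALS, which stabilises IGF complexes in blood, were below 100 a.u. on every array and were not tested. IGFBP1 lies next to IGFBP3, with 19582 bases between their probes, and was at 58.1 a.u. on OM, 25.7 a.u. on MB and 65.1 a.u. on NM before scaling.

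The genes that act on the binding proteins held the largest ratios of the list in MB over NM. PAPPA, the protease that cuts IGFBP4 and other binding proteins, was 629 a.u. on OM, 144 a.u. on MB and 2079 a.u. on NM before scaling. It was 4.26-fold lower in MB than in OM, 16.0-fold lower in MB than in NM and 3.77-fold higher in NM than in OM. Its second probe was dimmer, at 98.7 a.u. on OM, 24.4 a.u. on MB and 241 a.u. on NM before scaling. It gave 3.96-fold and 11.0-fold lower in MB than in OM and NM, and 2.79-fold higher in NM than in OM. The first of these ratios has both arrays below 100 a.u. and was below the limit for a call. MB was thus the lowest and NM the highest array by both probes.
STC2, a secreted inhibitor of PAPPA, was also lowest on MB, at 4643 a.u. on OM, 351 a.u. on MB and 7424 a.u. on NM before scaling. It was 12.9-fold lower in MB than in OM and 23.6-fold lower in MB than in NM. STC2 is in the study's own list of genes that are low in MB, which was drawn from these arrays, so its direction is not independent evidence. ADAM12 is a metalloprotease reported to cut IGFBP3 and IGFBP5. By its brighter probe it was 4404 a.u. on OM, 13678 a.u. on MB and 2334 a.u. on NM before scaling. This is 3.18-fold for MB over OM and 5.26-fold for MB over NM. Its other probe, which was designed on a different transcript of the gene, gave 1.09-fold and 0.824-fold. The call thus held for 1 of 2 transcripts, and which of them gives the form that cuts binding proteins was not tested.

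**Figure D4:**
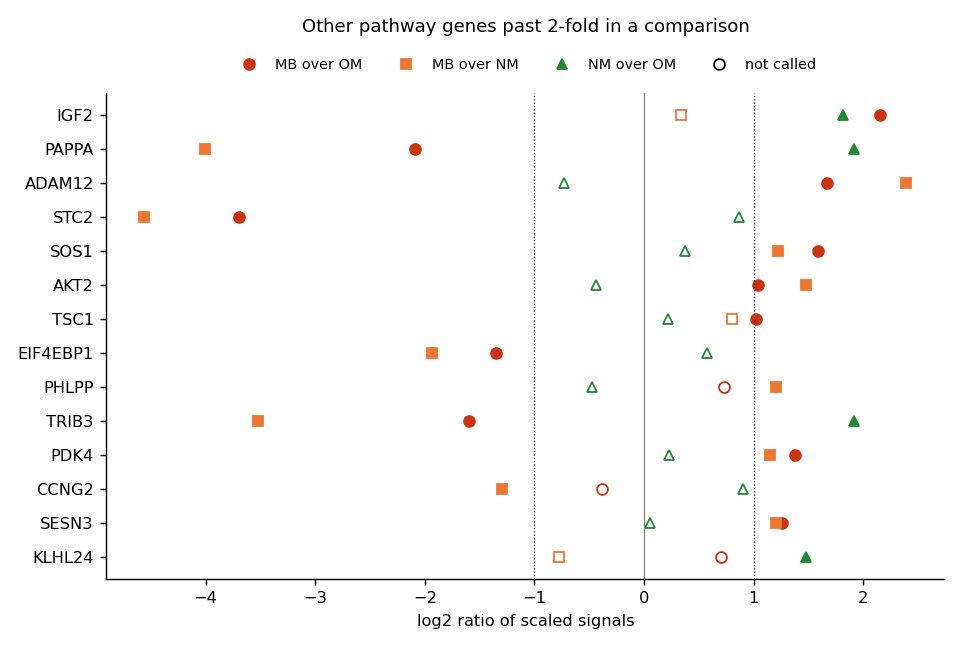
Log2 ratios of the 14 other pathway genes that passed 2-fold in at least 1 comparison, by the brightest probe of each gene, with open symbols where the comparison was not called and dotted lines at 2-fold. STC2, PAPPA and TRIB3 lie furthest left in MB over NM, and IGF2, PAPPA, TRIB3 and KLHL24 lie past 2-fold on the right in NM over OM.

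Downstream of the receptors, 17 of 23 tested genes of the PI3-kinase, AKT and mTOR group had a ratio above 1 in MB over OM, beside 57.7% of all gene names, and the group's median log2 ratio was 0.49, beside 0.09. With the other ways of processing these were 13 to 18 genes and a median of 0.22 to 0.52. As the group was chosen with earlier results of these data known, its share is a description only. In MB over OM, 2 of the 23 were higher and 2 lower at 2-fold, 8.70% each, beside 6.76% and 4.23% of all gene names. In MB over NM, 2 were higher and 2 lower, again 8.70% each, beside 13.7% and 10.4%. AKT2, a kinase that carries insulin signals to glucose uptake, was 117 a.u. on OM, 236 a.u. on MB and 75.8 a.u. on NM before scaling, which is 2.06-fold for MB over OM and 2.79-fold for MB over NM. The first of these calls held with 9 of 14 alternative ways of processing. TSC1, part of the complex that restrains mTOR, was 2.03-fold higher in MB than in OM, a call that held with 7 of the 14. PHLPP, a phosphatase of AKT, was 2.30-fold higher in MB than in NM, which held with 11 of the 14. The other PHLPP probe was at background on every array. EIF4EBP1, the translation repressor that mTOR inactivates, was 34018 a.u. on OM, 13014 a.u. on MB and 44572 a.u. on NM before scaling, 2.56-fold lower in MB than in OM and 3.82-fold lower in MB than in NM. TRIB3, a stress-induced pseudokinase that binds AKT, was 70359 a.u. on OM, 22660 a.u. on MB and 233522 a.u. on NM before scaling. It was 3.04-fold lower in MB than in OM, 11.5-fold lower in MB than in NM and 3.78-fold higher in NM than in OM, and its other probe gave 0.334, 0.0715 and 4.67-fold for MB over OM, MB over NM and NM over OM.

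Of the adaptors, 1 of 10 tested passed 2-fold in MB over OM (beside 6.76% higher and 4.23% lower of all gene names), SOS1, the exchange factor that links receptors to RAS. It was 40.5 a.u. on OM, 119 a.u. on MB and 46.0 a.u. on NM before scaling, 3.01-fold higher in MB than in OM and 2.33-fold higher than in NM, both lost with normexp background correction. Of the FOXO factors and known targets in the pathway list, which leaves out IRS2, 2 of 8 tested were higher in MB over OM. None of these 8 was lower, beside the same 6.76% higher and 4.23% lower of all gene names. The higher ones are given next. These were PDK4, which turns down pyruvate oxidation, at 2.61-fold, and SESN3, a stress-induced inhibitor of mTOR, at 2.40-fold, and both were also higher in MB than in NM, at 2.22-fold and 2.31-fold. All 4 of these calls were lost with normexp background correction. PDK4 was at 87.0 a.u. on OM, 221 a.u. on MB and 89.5 a.u. on NM before scaling, and its other probe was at background on all 3 arrays. CCNG2, an atypical cyclin of resting cells, moved the other way, 2.45-fold lower in MB than in NM, with its 3 probes between 0.408 and 0.420-fold. IRS2, a FOXO target counted with the members and not in this group, was 2.12-fold lower in MB than in OM. KLHL24, an adaptor for protein degradation, was 2.79-fold higher in NM than in OM by its brightest probe and 1.35-fold by the other.
The 3 IGF2 mRNA-binding proteins and the 2 genes for processing and degrading these hormones on the list passed 2-fold in no comparison.

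**Figure D5:**
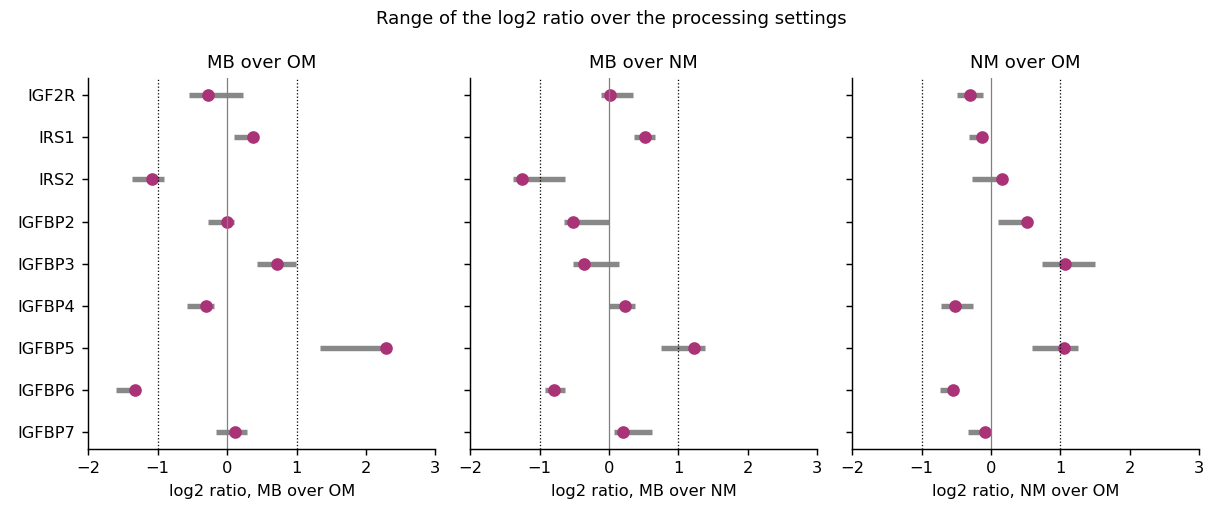
Log2 ratio of the 9 measured genes in the 3 comparisons (points) with the range over the alternative ways of processing the signals that gave a measured value (bars), and dotted lines at 2-fold. IRS2 and IGFBP6 stay left of 0 in MB over OM and MB over NM and IGFBP5 stays right of 0 in all 3 comparisons, while the bars of IGF2R, IGFBP2 and IGFBP7 cross 0 in MB over OM.

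With other ways of processing, MB over OM kept its sign for IRS2 (1.87 to 2.57-fold lower), IGFBP6 (2.49 to 3.04-fold lower) and IGFBP5 (2.53 to 4.88-fold higher). The signs of IGF2R, IGFBP2 and IGFBP7 in MB over OM depended on the scaling or the probe, with log2 ratios from -0.55 to 0.23, -0.28 to 0.10 and -0.16 to 0.28.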

How the data were processed

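One Agilent 4 × 44K array per population (OM, MB, NM) was available. The deposited files hold spot intensities from Agilent Feature Extraction (9.5 per the labels, 9.5.3.1 per the file headers), background-subtracted by the authors and in arbitrary units, with no scaling between arrays. A value table of the whole series, also deposited, repeats these intensities (130128 of 130128 within 0.1%). Control spots and outlier spots (77 on OM, 79 on MB, 81 on NM) were left out, spots of a probe were averaged, and arrays were scaled to the mean of GAPDH, ACTB and HSP90AA1, each from its probe printed in 10 spots. A gene was represented by its probe with the highest mean signal. The signals of IGFBP2, IGFBP7 and both IGFBP3 probes were flagged on every array as scaled up from a scan at lower gain. The brighter IGF2 probe had that flag on MB and NM alone, and EIF4EBP1 on OM and NM alone. The effect of this on the ratios was not tested. A ratio to an array at background is a lower bound, "at least N-fold". It was taken against the dimmest signal that array still measured (20.9 a.u. for OM, 19.4 a.u. for MB, 29.1 a.u. for NM), or the probe's own value where that was larger. "At background" means not well above background by the software's flag.

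The members, the pathway list, the markers and the motifs were chosen with earlier results of these data known. Genes named outside the 10 members are the pathway genes past 2-fold in a comparison, IGF1, IGF1R, INS, IGFBP1, IGFALS, the housekeeping genes and the markers. The 14 alternatives covered scaling (75th percentile, quantile, none, 8 spike-in probes, other housekeeping means), background (normexp in limma 3.58.1 with R 4.3.3, offset 50; none), filters, outlier spots, the choice of probe and the value table. The calling was tested on simulated data in which the changed probes were well above 100 a.u. and no true ratio was 2-fold. That test does not bear on calls near 2-fold or on dim probes. Python 3.11.15, numpy 2.4.6, pandas 2.3.3 and matplotlib 3.10.9 were used. The number of arrays limits the precision.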

Additional observations from a re-analysis of the deposited data

How the results depend on the processing

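No paired analysis was possible because each population has a single array. For the members, the 3 calls in MB over OM became 1 with the dimmest measured probe of each gene (IGFBP6), where IRS2 was 1.87-fold lower and IGFBP5 was read by a probe below 100 a.u. The 2 calls in MB over NM became 1 after quantile normalization, with normexp and without background subtraction (IRS2 alone), 1 with the geometric mean over probes (IGFBP5 alone) and 0 with the dimmest probe. The 1 call in NM over OM became 0 with 75th percentile scaling, quantile normalization, no scaling or spike-in scaling, and 3 with no minimum signal, which lets in INSR at background and IGFBP5. For the pathway list, the 11 calls in MB over OM became 6 with normexp and 7 without background subtraction, and all of these were among the 11. The 11 calls in MB over NM became 7 after quantile normalization and 6 with normexp or without background subtraction, again all among the 11. The other 68 of 84 recomputed counts were within 1.5 times of those reported, and the 4 pathway calls in NM over OM were 3 or 4 throughout. The genes behind that count changed with the choice of probe. With the geometric mean over probes 3 of the calls were the same, and KLHL24 lost its call. With the dimmest probe 2 were the same, and IGF2 and KLHL24 lost theirs. No member changed sign in a comparison in which it was called, while of the called members in other comparisons IRS2 in NM over OM ran from -0.27 to 0.23 and IGFBP3 in MB over NM from -0.52 to 0.14. The median over all genes moved by up to -0.28 on the log2 scale (spike-in scaling, MB over OM) and by 0.16 with no scaling in MB over NM. The pathway list's median in MB over OM lay between 0.06 and 0.43. Of the dim pathway genes, SOS1, AKT2 and PDK4 lost their calls in MB over OM with normexp and without background subtraction, settings that leave or add signal at the low end. IGF2, STC2, EIF4EBP1 and TRIB3 kept their calls in MB over OM with all 14 alternatives.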
